A study of Mus with 3 samples.

Results

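The 6 genes Nr4a1, Nr4a2, Nr4a3, Egr1, Egr2 and Egr3 were examined among the 32285 genes of a single-cell library from MC38 tumors, a mouse colon cancer line, taken on day 16 after injection. The genes were listed by name, with earlier results of these data known, and all 6 were found in the matrix. The library pooled cells of WT mice, of RARα-KO mice, in which Cre under the distal Lck promoter deletes within the floxed Rara gene (dLck-Cre×Rara L/L), and of RARα-TG mice, which carry Rara under the CD2 promoter (CD2-Rara). The RARα-KO line still makes a shortened Rara transcript. Cells of each genotype carried their own antibody hashtag, and for each genotype 30000 CD45.2+ CD3+ T cells and 10000 unsorted cells went into the pool. The tissue labels (spleen, with naive CD8 T cells put in culture) go against the tumor protocol of the same entries, and C57BL/6 or dLck-Cre mice are the named controls without a statement of which gave the WT tumor. The number of mice per genotype is not known here, so each genotype was 1 sample, nothing was tested between genotypes, and no p-value was computed.

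The 3 Nr4a genes encode orphan nuclear receptors, and the 3 Egr genes encode zinc finger transcription factors. Antigen receptor signaling switches on all of them within a short time as early response genes, and in T cells Nr4a proteins, Egr2 and Egr3 are known for restraint of the response, including anergy and exhaustion. Growth factors, stress and tissue dissociation induce the same genes in many other cells, Egr1 above all, and these tumors were digested with collagenase before sorting. In the RefSeq annotation of GRCm38.p6, which is the mm10 build of the counts, the genes are Nr4a1 (ENSMUSG00000023034, chromosome 15, 101253902 to 101274795), Nr4a2 (ENSMUSG00000026826, chromosome 2, 57106830 to 57124003), Nr4a3 (ENSMUSG00000028341, chromosome 4, 48045078 to 48086447), Egr1 (ENSMUSG00000038418, chromosome 18, 34861207 to 34864956), Egr2 (ENSMUSG00000037868, chromosome 10, 67534469 to 67542188) and Egr3 (ENSMUSG00000033730, chromosome 14, 70077317 to 70082613).

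Of 5585 called cells with a median of 4823 UMIs, 1927 came from WT, 2103 from RARα-KO and 895 from RARα-TG tumors. CD8 T cells were those in T cell clusters that had Cd8a and lacked Cd4, which gave 844 WT, 1184 RARα-KO and 113 RARα-TG cells with 5617000, 8135982 and 602657 gene UMIs, so the RARα-TG values are the least precise. CD4 T cells were split by Foxp3 into 95, 167 and 111 Foxp3-negative cells and 120, 79 and 150 Foxp3-positive cells in the same order. Rara itself, counted over the whole gene, was 85.3 CPM (77.8 to 93.3) in WT, 78.7 CPM (72.7 to 85.0) in RARα-KO and 191 CPM (158 to 229) in RARα-TG CD8 T cells, so Rara set RARα-TG apart and did not tell RARα-KO from WT. Cd3e was detected in 97.7% of CD8 T cells, 94.4% of Foxp3-negative and 95.1% of Foxp3-positive CD4 T cells. Levels are UMIs summed over the cells of a group divided by all gene UMIs of that group and scaled to counts per 1e6 (CPM), with exact Poisson 95% intervals in parentheses. Shares of cells have Clopper-Pearson 95% intervals and log2 ratios have exact binomial ones. All of them cover counting error only, not the spread between mice, and they treat UMIs of 1 cell as independent. Levels were compared for a gene across groups, not between genes.

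In WT cells, the order of cell classes differed from gene to gene, and the name antigen response gene did not hold for the highest levels of Egr1. Egr1 was highest in neutrophils at 1866 CPM (1314 to 2572), which rested on 10 cells, and in MC38 or stromal cells at 1612 CPM (1586 to 1639), and these intervals overlapped. Myeloid cells followed at 338 CPM (293 to 389), and then Foxp3-negative CD4 T cells at 95.7 CPM (69.0 to 129), CD8 T cells at 62.0 CPM (55.6 to 68.8) and Foxp3-positive CD4 T cells at 28.4 CPM (16.5 to 45.4). Dendritic cells had 3 Egr1 UMIs in 48 cells, or 7.38 CPM (1.52 to 21.6), which overlapped only Foxp3-positive CD4 T cells. Thus Egr1 was detected in 4.17% of WT dendritic cells with a median of 7873 UMIs, and in 19.7% of WT CD8 T cells with a lower median of 5666 UMIs. Free RNA of the pool, taken from barcodes at ranks 45000 to 90000, held 422 CPM of Egr1. What such RNA added to the levels of each class was not tested. The free RNA held 252 CPM of Nr4a1, 159 of Nr4a2, 156 of Nr4a3, 14.8 of Egr3 and 0 Egr2 UMIs in 270094.

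Nr4a1, which encodes Nur77, was present in every class. In WT its order was MC38 or stromal cells at 636 CPM (619.8 to 653), neutrophils at 353 CPM (142 to 727), myeloid cells at 344 CPM (297 to 395), Foxp3-negative CD4 T cells at 289 CPM (241 to 344), dendritic cells at 268 CPM (220.2 to 323), Foxp3-positive CD4 T cells at 208 CPM (174 to 248) and CD8 T cells at 129 CPM (119.8 to 139). The neighbors from neutrophils to Foxp3-positive CD4 T cells had overlapping intervals, and neutrophils overlapped MC38 or stromal cells as well. CD8 T cells lay below both CD4 classes, with a log2 ratio of -1.16 (-1.44 to -0.88) to Foxp3-negative and -0.69 (-0.97 to -0.41) to Foxp3-positive cells.

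Nr4a2, whose protein is known as Nurr1, had another order. WT levels were 375 CPM (327 to 428) in myeloid cells and 248 CPM (202 to 301.9) in dendritic cells, then 202 CPM (191 to 214) in CD8 T cells, 197 CPM (188 to 207) in MC38 or stromal cells and 189 CPM (151 to 234) in Foxp3-negative CD4 T cells. The neighbors from dendritic cells to Foxp3-negative CD4 T cells did not differ beyond their intervals. Foxp3-positive CD4 T cells were far lower at 56.7 CPM (39.3 to 79.2), which gave a log2 ratio of 1.83 (1.34 to 2.37) for CD8 against Foxp3-positive cells. No Nr4a2 UMI was found in 10 WT neutrophils, where 0 UMIs allow up to 151 CPM, or in 37 RARα-KO neutrophils, where they allow up to 39.0 CPM.

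Nr4a3, which encodes NOR1, had its highest WT level in dendritic cells, at 539 CPM (469.7 to 615). Foxp3-negative CD4 T cells followed at 255 CPM (210.1 to 307), then myeloid cells at 153 CPM (122 to 188), CD8 T cells at 145 CPM (136 to 156), Foxp3-positive CD4 T cells at 108 CPM (83.7 to 138) and neutrophils at 101 CPM (12.2 to 364). The intervals of myeloid and CD8 T cells overlapped, as did those of CD8 and Foxp3-positive CD4 T cells, and the wide one of neutrophils overlapped every class but dendritic cells. MC38 or stromal cells were lowest at 22.6 CPM (19.5 to 26.0), although their cells were the deepest, with a median of 28932 UMIs. Egr1 and Nr4a3 were thus at opposite ends in dendritic and in MC38 or stromal cells.

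Egr2 and Egr3 were sparse in T cells. WT CD8 T cells held 24 Egr2 UMIs in 2.01% of cells, or 4.27 CPM (2.74 to 6.36), and 21 Egr3 UMIs in 1.54% of cells, or 3.74 CPM (2.31 to 5.71). WT dendritic cells showed each of them in 4.17% of cells (0.509% to 14.3%), or 2 of 48 cells each, so the WT CD8 shares were no higher than in a class outside the T cells. Whether dendritic cells express either gene was not tested. In RARα-KO CD8 T cells the shares were 6.17% (4.86% to 7.69%) for Egr2 and 4.22% (3.15% to 5.53%) for Egr3, where RARα-KO dendritic cells had Egr2 in 0 of 36 cells, which allows up to 8.33%, and Egr3 in 5.56%. Egr2 reached 43.4 CPM (28.1 to 64.1) in WT myeloid and 74.0 CPM (68.4 to 80.0) in WT MC38 or stromal cells, whose intervals did not overlap. Egr3 was highest in MC38 or stromal cells at 24.3 CPM (21.1 to 27.8), with an interval that overlapped those of dendritic cells at 14.8 CPM (5.42 to 32.1) and Foxp3-negative CD4 T cells at 13.7 CPM (5.02 to 29.7). Foxp3-positive WT cells held 1 UMI of each gene.

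**Figure D1:**
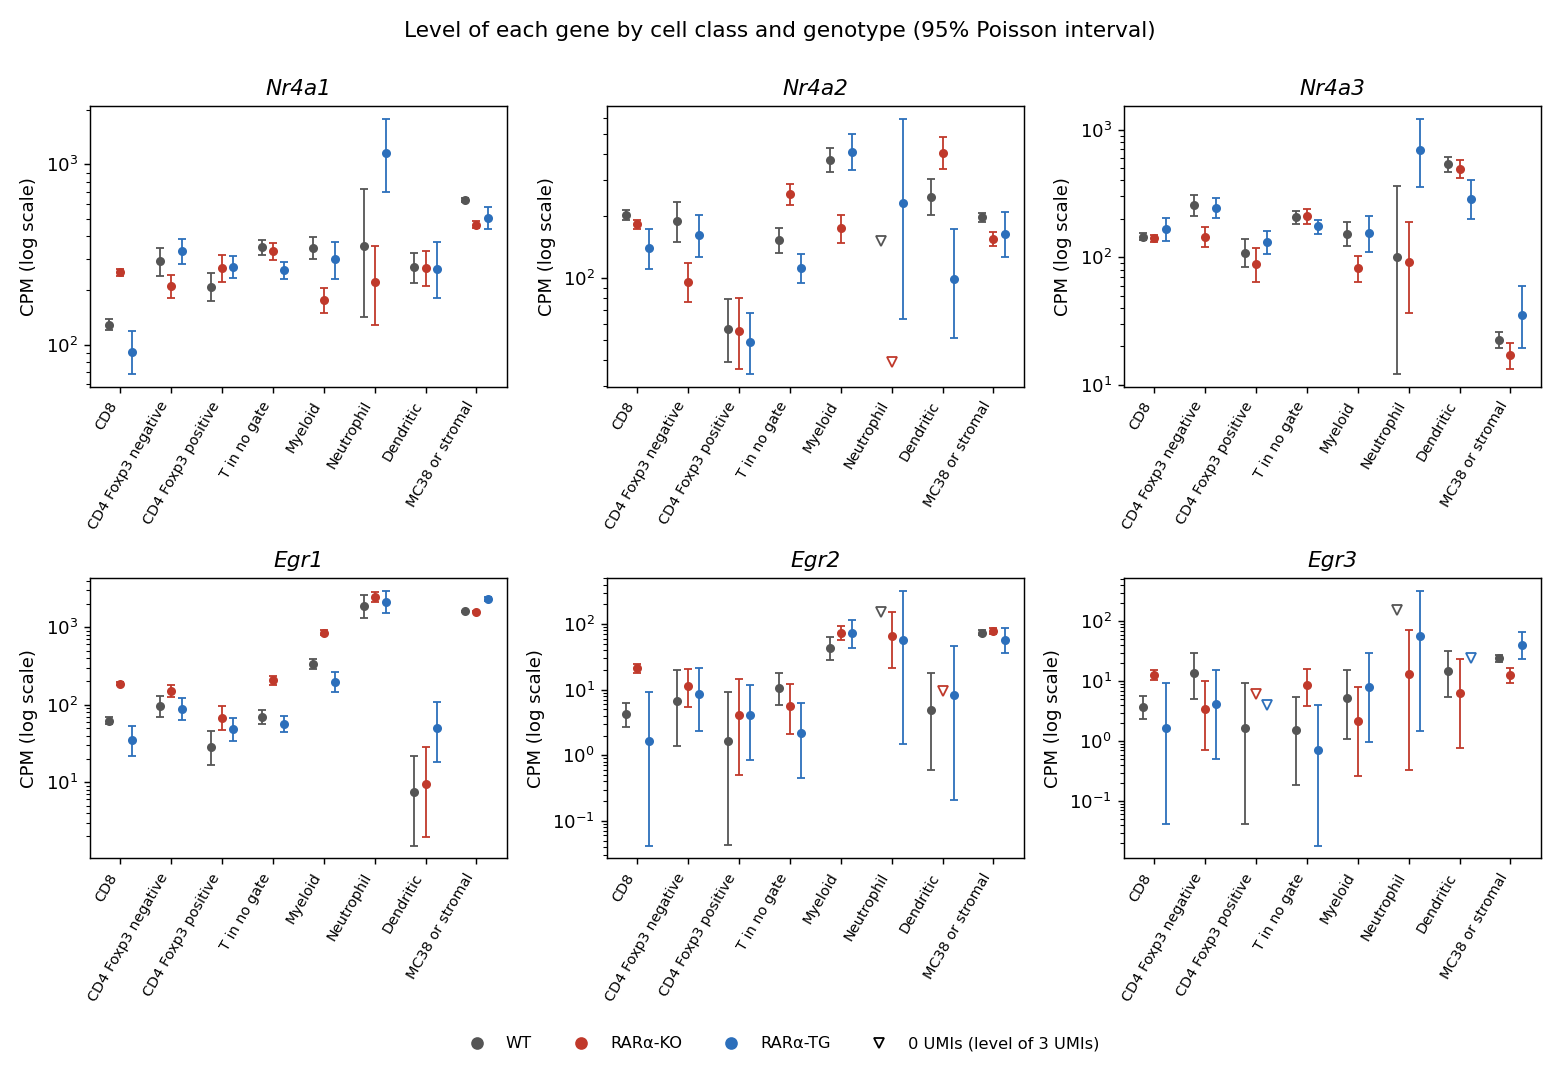
CPM of the 6 genes on a log axis in 8 cell classes for WT (gray), RARα-KO (red) and RARα-TG (blue) cells. Points are levels of 1 pooled sample per genotype, bars are Poisson 95% intervals and open triangles mark groups at 0 UMIs at the level of 3 UMIs. Egr1 sits at 7.38 CPM in WT dendritic cells and at 1612 CPM in WT MC38 or stromal cells, and Nr4a3 at 539 and 22.6 CPM.

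RARα-KO CD8 T cells were compared with WT CD8 T cells to ask how loss of RARα bears on these genes. All 3 Egr genes and Nr4a1 were higher in RARα-KO cells, whereas Nr4a2 and Nr4a3 were not. Nr4a1 was 129 CPM (725 UMIs, 119.8 to 139) in WT and 251 CPM (2044 UMIs, 240.5 to 262) in RARα-KO cells, a log2 ratio of 0.96 (0.84 to 1.09). Egr1 was 62.0 CPM (348 UMIs, 55.6 to 68.8) in WT and 187 CPM (1519 UMIs, 177 to 196) in RARα-KO cells, a log2 ratio of 1.59 (1.42 to 1.76). Egr2 was 4.27 CPM in WT and 21.3 CPM (173 UMIs, 18.2 to 24.7) in RARα-KO cells, a log2 ratio of 2.32 (1.69 to 2.996). Egr3 was 3.74 CPM in WT and 12.7 CPM (103 UMIs, 10.3 to 15.4) in RARα-KO cells, a log2 ratio of 1.76 (1.07 to 2.51). The intervals of these 4 genes did not overlap between both genotypes.

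Nr4a2 was 202 CPM (1136 UMIs, 191 to 214) in WT and 183 CPM (1487 UMIs, 174 to 192) in RARα-KO cells, with a log2 ratio of -0.15 (-0.26 to -0.033), and Nr4a3 was 145 CPM (817 UMIs, 136 to 156) and 141 CPM (1146 UMIs, 133 to 149), with a log2 ratio of -0.046 (-0.18 to 0.085). Counting intervals placed 4 of 6 members above and 1 below WT, while 18.3% of the 6592 genes with 0.1 or more UMIs per cell were above and 14.5% below. The median log2 ratio was 1.28 over all 6 members and 0.016 over all these genes, and 5 of the 6 members passed that minimum. Egr2 passed it only through RARα-KO cells, in which it is high, and Egr3 did not pass. The count of 4 and the median of 1.28 include both of them, so neither is read against the base of all genes. Members that passed in both genotypes were at 0.96 (Nr4a1), -0.15 (Nr4a2), -0.046 (Nr4a3) and 1.59 (Egr1). Egr1 passed in both genotypes and was over 2-fold higher, and among the 6592 genes 1.29% were 2-fold or more higher and 1.35% 2-fold or more lower. The small lower value of Nr4a2 was not kept without the Gzmf cluster (log2 ratio 0.053). Without the largest clonotype of each genotype, Nr4a1 was at 0.71 and Nr4a2 and Nr4a3 were both below WT at -0.37 and -0.21.

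The RARα-KO difference in Nr4a1 lay in the UMIs per positive cell and not in the share of positive cells. Nr4a1 was detected in 36.1% (32.9% to 39.5%) of WT and 36.6% (33.8% to 39.4%) of RARα-KO CD8 T cells, at medians of 5666 and 5574 UMIs per cell. Positive cells held 2.38 Nr4a1 UMIs on average in WT and 4.72 in RARα-KO. After each cell was thinned to 1000 UMIs, the shares were 11.4% (9.31% to 13.7%) and 13.9% (11.9% to 16.0%). Egr1 differed in both ways, with 19.7% (17.0% to 22.5%) positive cells in WT and 33.9% (31.2% to 36.6%) in RARα-KO, or 4.38% and 11.5% after thinning, which left out 1 RARα-KO cell. Nr4a2 and Nr4a3 were found in fewer RARα-KO cells, with 48.2% against 39.9% for Nr4a2 and 49.4% against 39.4% for Nr4a3. At 1000 UMIs their shares were 16.2% against 14.03% and 13.6% against 13.6%, with overlapping intervals for both.

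A small number of cells carried a large part of the counts. The 10 highest RARα-KO CD8 T cells held 25.1% of Nr4a1 and 34.96% of Egr1 UMIs of that group, and the 10 highest WT cells held 21.0% and 31.3%. The highest single cell had 99 Nr4a1 and 118 Egr1 UMIs in RARα-KO and 39 and 37 in WT. Cells with 10 or more Nr4a1 UMIs numbered 45 in RARα-KO and 8 in WT. With every cell given the same weight, an alternative chosen after seeing the data, the log2 ratio was 0.79 for Nr4a1, 1.27 for Egr1, 2.03 for Egr2 and 1.52 for Egr3.

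Markers of other cells were counted inside the CD8 gate. Of 12 defining markers of myeloid cells, neutrophils and MC38 or stromal cells, 7 had a UMI in WT CD8 T cells, 9 in those of RARα-KO and 5 in those of RARα-TG, and their summed level was 4.27, 9.34 and 8.30 CPM. S100a8, S100a9 and Krt8 were at 0 in all 3 genotypes. Without the cells that had any of these UMIs, which kept 97.9% of WT and 95.4% of RARα-KO cells in an alternative added after seeing the data, Egr1 was at a log2 ratio of 1.72 and Nr4a1 at 0.99. The whole marker lists summed to 169, 126 and 647 CPM for myeloid cells, 187, 77.7 and 3.32 for neutrophils, 107, 62.4 and 87.9 for dendritic cells and 14963, 11611 and 17275 for MC38 or stromal cells, in the order WT, RARα-KO and RARα-TG. The last list was mostly Tmsb10, S100a6 and Lgals1, which T cells also express. In RARα-TG cells the myeloid list was mostly Fcer1g at 372 CPM and Tyrobp at 171 CPM, against 64.98 and 7.48 CPM in WT, with Lyz2 at 1.66 and 1.60 CPM. The neutrophil list was nearly all Il1r2, at 186 CPM in WT, 77.6 in RARα-KO and 3.32 in the RARα-TG cells. The part of these genes in the levels of the members was not tested.

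RARα-TG CD8 T cells were compared with WT cells for the effect of raised Rara. Nr4a1, Nr4a2 and Egr1 were lower in RARα-TG cells. Nr4a1 was 91.3 CPM (55 UMIs, 68.8 to 119), a log2 ratio of -0.50 (-0.92 to -0.10) to WT, Nr4a2 was 139 CPM (84 UMIs, 111 to 173), a log2 ratio of -0.54 (-0.87 to -0.22), and Egr1 was 34.8 CPM (21 UMIs, 21.6 to 53.3), a log2 ratio of -0.83 (-1.54 to -0.20). Nr4a3 stood apart at 166 CPM (100 UMIs, 135 to 202), with a log2 ratio of 0.19 (-0.12 to 0.49). Egr2 and Egr3 had 1 UMI each in 113 cells, and their intervals reached from -6.73 to 1.25 and from -6.54 to 1.46, so a difference was not detectable at this depth. Intervals placed 0 of 6 members above and 3 below WT, where 14% of 6602 genes were above and 12.3% below. The median log2 ratio was -0.68 over all 6 members and 0.0074 over the 6602 genes. The former includes Egr2 and Egr3, which did not pass the minimum of 0.1 UMIs per cell, so these medians are not compared. None of the 4 members that passed the minimum of 0.1 UMIs per cell was 2-fold lower or higher, while 5.8% of the 6602 genes were 2-fold or more lower and 4.63% 2-fold or more higher. With cells thinned to 1000 UMIs, Egr1 had the opposite sign at 0.31, and 1 member stayed below WT.

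**Figure D2:**
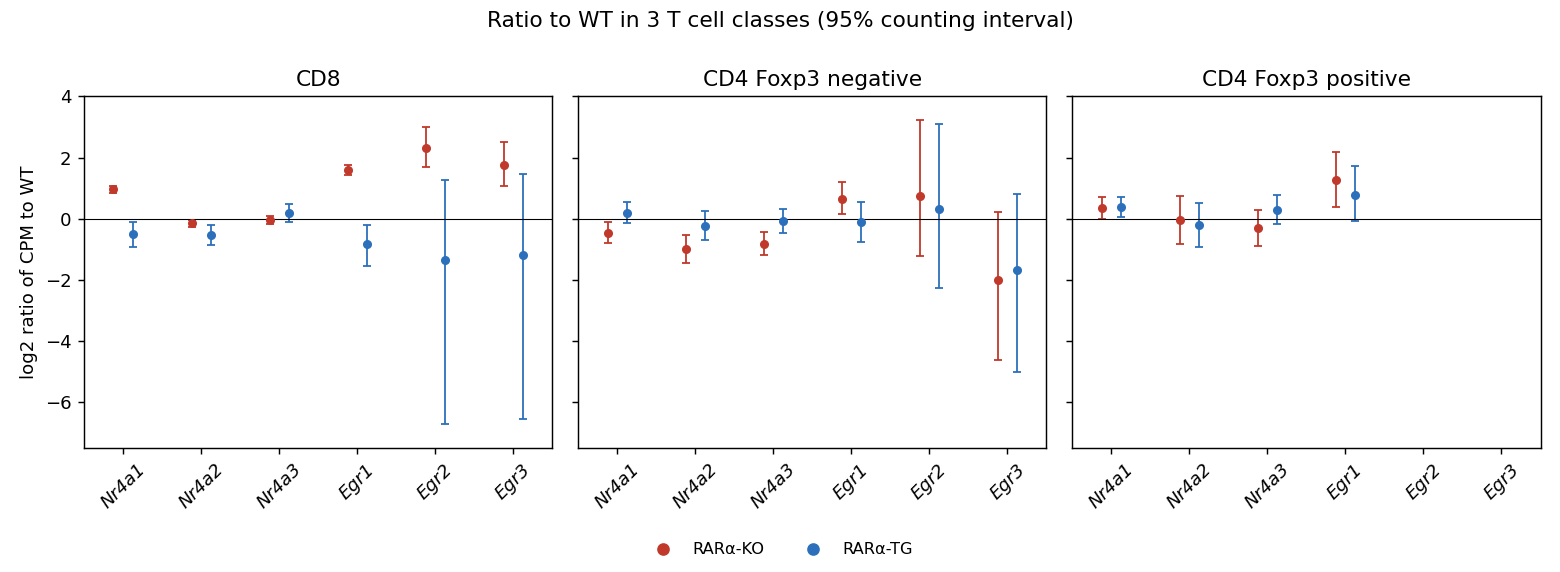
Log2 ratio of CPM to WT for RARα-KO (red) and RARα-TG (blue) cells in CD8, Foxp3-negative CD4 and Foxp3-positive CD4 T cells, with 95% counting intervals. Nr4a1 in RARα-KO lies at 0.96 in CD8 and at -0.46 in Foxp3-negative CD4 T cells, and Egr2 and Egr3 have no ratio in Foxp3-positive cells, where both groups held 3 UMIs or fewer.

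In Foxp3-negative CD4 T cells, the 3 Nr4a genes were lower and Egr1 was higher in RARα-KO than in WT. Nr4a1 went from 289 CPM (127 UMIs, 241 to 344) in WT to 210.0 CPM (184 UMIs, 181 to 243) in RARα-KO, a log2 ratio of -0.46 (-0.80 to -0.12). Nr4a2 was 189 CPM (83 UMIs, 151 to 234) in WT and 95.9 CPM (84 UMIs, 76.5 to 119) in RARα-KO, a log2 ratio of -0.98 (-1.43 to -0.52). Nr4a3 was 255 CPM (112 UMIs, 210.1 to 307) in WT and 145 CPM (127 UMIs, 121 to 172) in RARα-KO, a log2 ratio of -0.82 (-1.19 to -0.44). Egr1 was 95.7 CPM (42 UMIs, 69.0 to 129) in WT and 151 CPM (132 UMIs, 126 to 179) in RARα-KO, a log2 ratio of 0.65 (0.14 to 1.19), and its call was lost with T cells taken by their TCR contig alone and with cells thinned to 1000 UMIs. Thus 1 of 6 members was above and 3 were below WT, beside 5.79% and 8.7% of 6149 genes. Only 4 of the 6 members, the 3 Nr4a genes and Egr1, passed the minimum of 0.1 UMIs per cell that these genes passed. Within cluster 2, led by Tnfsf11, Tnfsf8 and Serpinb1a and the largest group of both genotypes with 46 WT and 106 RARα-KO cells, the Nr4a genes were lower at -0.67 (-1.13 to -0.21), -1.24 (-1.77 to -0.70) and -0.99 (-1.44 to -0.54), and Egr1 was at -0.047 (-0.68 to 0.62). In cluster 1, with 25 WT and 28 RARα-KO cells, Egr1 was higher at 2.22 (1.02 to 3.63) on 35 UMIs from 5 RARα-KO cells, and Nr4a1 was at 0.54 (-0.13 to 1.23). Egr2, at 3 and 10 UMIs, and Egr3, at 6 and 3 UMIs, were too sparse to separate.

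RARα-TG Foxp3-negative CD4 T cells held levels within the counting error of WT for all 6 members. Nr4a1 was 331 CPM (281 to 387), Nr4a2 161 CPM (127 to 202), Nr4a3 244 CPM (201 to 293) and Egr1 89.1 CPM (64.2 to 120.4), with log2 ratios of 0.19 (-0.15 to 0.54), -0.23 (-0.70 to 0.24), -0.065 (-0.45 to 0.32) and -0.10 (-0.75 to 0.55). The genotypes filled different clusters and clusters differed for Egr1. In cluster 2, Egr1 was lower in RARα-TG at -2.62 (-4.59 to -1.11) on 4 against 30 UMIs, and in cluster 16, led by Laptm4b and Pcsk1, which held 23 RARα-TG cells of the class and under 20 WT cells, it was 261 CPM (164 to 396). Over the whole class none was called higher or lower, beside 5.81% and 6.61% of 5957 genes. Of the 6 members, 4 passed the minimum of 0.1 UMIs per cell that these genes passed.

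Foxp3-positive CD4 T cells, which are regulatory T cells by their Foxp3, had 1 member called in each genotype. Egr1 was 28.4 CPM (17 UMIs, 16.5 to 45.4) in WT, 67.6 CPM (33 UMIs, 46.5 to 94.9) in RARα-KO and 49.0 CPM (36 UMIs, 34.3 to 67.8) in RARα-TG, with log2 ratios of 1.25 (0.37 to 2.19) and 0.79 (-0.080 to 1.71) to WT. The RARα-KO ratio of Egr1 turned to -0.73 with cells thinned to 1000 UMIs, where 2 RARα-KO cells had an Egr1 UMI. Nr4a1 was 208 CPM (125 UMIs, 174 to 248) in WT, 266 CPM (130 UMIs, 222 to 316) in RARα-KO and 269.5 CPM (198 UMIs, 233 to 309.8) in RARα-TG, with log2 ratios of 0.35 (-0.013 to 0.72) and 0.37 (0.040 to 0.71). Nr4a2 was low in all 3 genotypes, at 56.7 CPM (39.3 to 79.2), 55.3 CPM (36.4 to 80.4) and 49.0 CPM (34.3 to 67.8), and Nr4a3 was 108 CPM (83.7 to 138), 88.0 CPM (63.7 to 119) and 132 CPM (107 to 161). The genotypes filled different clusters here too. Cluster 3, led by Foxp3 and Lrrc32, held 106 of 120 WT cells and 38 of 150 RARα-TG cells, and cluster 16 held 103 RARα-TG cells. Nr4a1 was 209.7 CPM (171 to 254) in WT and 371 CPM (279.8 to 483) in RARα-TG cells of cluster 3, a log2 ratio of 0.82 (0.33 to 1.31), and 218 CPM (178 to 263) in RARα-TG cells of cluster 16. For RARα-KO, 1 member was above and 0 below WT, beside 5.78% and 5.07% of 6572 genes. For RARα-TG it was again 1 and 0, beside 8.91% and 7.9% of 6305 genes. In each comparison 4 of the 6 members passed the minimum of 0.1 UMIs per cell that these genes passed.

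T cells that fell in none of these gates numbered 391 WT, 295 RARα-KO and 410 RARα-TG cells, with medians of 2862 to 3021 UMIs. They are a mix of T cells, and 33.5% of them had Foxp3 over all genotypes. Cluster 3, led by Foxp3 and Lrrc32, held 289 WT, 146 RARα-KO and 164 RARα-TG cells in and out of the gates. The part of this mix in the values below was not tested. There too Egr1 was 69.2 CPM (55.7 to 85.0) in WT and 206 CPM (179 to 235) in RARα-KO, a log2 ratio of 1.57 (1.21 to 1.94), and Nr4a1 was 346 CPM (315 to 379) and 329 CPM (295 to 366), a log2 ratio of -0.072 (-0.28 to 0.13). Nr4a2, in contrast to CD8 and Foxp3-negative CD4 T cells, was higher in RARα-KO at 255 CPM (226 to 288) against 153 CPM (132 to 176), a log2 ratio of 0.74 (0.47 to 1.01), Nr4a3 was at 0.030 (-0.23 to 0.29), and Egr3 was higher at 2.49 (0.22 to 5.74) on 9 against 2 UMIs. RARα-TG cells of this group were lower than WT at -0.42 (-0.63 to -0.22) for Nr4a1, -0.45 (-0.76 to -0.14) for Nr4a2 and -2.31 (-4.75 to -0.47) for Egr2. Myeloid cells differed by genotype as well. Egr1 was 338 CPM (293 to 389) in 77 WT, 853 CPM (794 to 915) in 126 RARα-KO and 199 CPM (147 to 263) in 35 RARα-TG myeloid cells. Nr4a1 in the same cells was 344 CPM (297 to 395), 177 CPM (150.4 to 206) and 297 CPM (232 to 373), so Egr1 was higher and Nr4a1 lower in RARα-KO. In MC38 or stromal cells Egr1 was 1612 CPM (1586 to 1639) in WT, 1587 CPM (1549.7 to 1625) in RARα-KO and 2298 CPM (2151 to 2452) in 24 RARα-TG cells, and Nr4a1 was 636 CPM (619.8 to 653), 462 CPM (442 to 483) and 505 CPM (437 to 580.0). The part that differences between tumors have in the T cell values was not tested.

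Dendritic cells had the highest Nr4a3 of all classes in WT and RARα-KO, at 539 CPM (469.7 to 615) and 490.2 CPM (416 to 574), and were at 288 CPM (201 to 401) in 17 RARα-TG cells. Their Egr1 was 7.38 CPM (1.52 to 21.6), 9.61 CPM (1.98 to 28.1) and 49.4 CPM (18.1 to 108) in the same order. The dendritic class joined 2 clusters in different mixes by genotype. Cluster 14, led by Fscn1 and H2-Eb1, held 21 WT, 27 RARα-KO and 4 RARα-TG cells. Cluster 17, led by Ly6d, Cox6a2 and Siglech, held 27, 9 and 13. The part of this mix in the dendritic values was not tested. Neutrophils, at 10, 37 and 10 cells, had 1866 CPM (1314 to 2572), 2472 CPM (2133 to 2849.9) and 2140.0 CPM (1507 to 2949.7) of Egr1, with overlapping intervals. Thus the contrast of high Egr1 in neutrophils and low Egr1 in dendritic cells was present in each genotype. Egr2 was 43.4 CPM (28.1 to 64.1), 74.1 CPM (57.5 to 93.9) and 73.1 CPM (43.3 to 116) in myeloid cells and 74.0 CPM (68.4 to 80.0), 77.9 CPM (69.7 to 86.7) and 58.1 CPM (36.8 to 87.1) in MC38 or stromal cells.

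CD8 T cells were clustered without the 6 members, and among groups of 20 or more cells 1 cluster held the highest levels of all of them, except for Egr3 in RARα-KO cells, which was 35.1 CPM (24.7 to 48.4) in cluster 0 and 36.4 CPM (26.6 to 48.5) in cluster 13. Smaller groups could be higher, and 3 RARα-KO cells in cluster 2 held 2.83% of Egr1 and 6.94% of Egr2 UMIs from 0.401% of gene UMIs. Cluster 0 was led by Xcl1, Ifng, Crtam, Ccl4, Mir155hg, Nfkbid, Utf1, Ccl3, Irf4 and Cd160, which include cytokine and chemokine genes of activated CD8 T cells. It held 78 of 844 WT (9.24%, 7.37% to 11.4%), 181 of 1184 RARα-KO (15.3%, 13.3% to 17.5%) and 0 of 113 RARα-TG CD8 T cells, which allows a share of up to 2.65%. In WT, cluster 0 cells had 484 CPM (421 to 554) of Nr4a1, a log2 ratio of 2.29 (2.05 to 2.52) to the other WT CD8 T cells. The same ratios were 0.91 (0.66 to 1.16) for Nr4a2, 1.39 (1.12 to 1.65) for Nr4a3, 1.84 (1.47 to 2.21) for Egr1, 4.05 (2.77 to 5.38) for Egr2 and 3.15 (1.72 to 4.52) for Egr3. In RARα-KO they were 2.34 (2.21 to 2.47), 1.43 (1.27 to 1.60), 1.71 (1.53 to 1.89), 1.30 (1.14 to 1.47), 1.65 (1.16 to 2.12) and 1.91 (1.29 to 2.52) in that order. These clusters were drawn from the same cells, so the ratios describe the cluster.

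The genotypes filled different clusters. The largest cluster of WT CD8 T cells was cluster 11, led by Gzmf, Gzmd and Gzme (36.0%), followed by cluster 5, led by Ifitm1 and Gzma (27.6%). That of RARα-KO cells was cluster 9, led by Serpine2, Prf1 and Zbtb32 (36.7%), and that of RARα-TG cells was cluster 1, led by Ramp3, Tcf7 and S1pr1 (46.0%). Cluster 0 gave 29.2% of WT and 43.0% of RARα-KO Nr4a1 UMIs from 7.80% and 13.0% of all gene UMIs. Outside cluster 0, RARα-KO against WT had log2 ratios of 0.73 (0.58 to 0.88) for Nr4a1, 1.61 (1.41 to 1.80) for Egr1, 3.11 (2.18 to 4.21) for Egr2 and 2.01 (1.11 to 3.03) for Egr3, and -0.34 (-0.46 to -0.21) for Nr4a2 and -0.25 (-0.40 to -0.095) for Nr4a3. RARα-TG cells against WT cells outside cluster 0 had log2 ratios of -0.12 (-0.55 to 0.28) for Nr4a1, -0.44 (-0.78 to -0.12) for Nr4a2, 0.36 (0.043 to 0.67) for Nr4a3 and -0.57 (-1.28 to 0.077) for Egr1. The intervals of Nr4a1 and Egr1 then held 0, that of Nr4a2 stayed below 0 and that of Nr4a3 lay above 0.

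Within clusters, RARα-KO and WT cells did not differ in 1 direction. In cluster 0, Nr4a1 was 484 CPM (421 to 554) in WT and 834 CPM (779.9 to 891) in RARα-KO, a log2 ratio of 0.79 (0.57 to 1.01), and Egr1 had 1.07 (0.72 to 1.43), while Nr4a2, at 0.18 (-0.085 to 0.46), and Nr4a3, at 0.075 (-0.20 to 0.36), had intervals that held 0. In cluster 13, led by the cell cycle genes Pclaf, Rrm2 and Mki67, Nr4a1 was 123 CPM (101 to 149) in WT and 395 CPM (361 to 431) in RARα-KO, a log2 ratio of 1.68 (1.37 to 1.997). Egr1 there was 45.8 CPM (32.5 to 62.6) and 300.6 CPM (271 to 332), a log2 ratio of 2.72 (2.24 to 3.23). The shares of positive cells in cluster 13 had overlapping intervals. They were 50% in WT and 53.7% in RARα-KO for Nr4a1 and 31.8% and 45.1% for Egr1. Positive cells held 3.18 and 11.3 Nr4a1 UMIs and 1.86 and 10.3 Egr1 UMIs on average in that order. In the Gzmf cluster 11, by contrast, all 3 Nr4a genes were lower in RARα-KO, with log2 ratios of -1.55 (-2.25 to -0.92) for Nr4a1, -1.63 (-2.01 to -1.26) for Nr4a2 and -2.08 (-2.72 to -1.50) for Nr4a3, and Egr1 and Egr2 were higher at 1.12 (0.77 to 1.48) and 3.05 (1.54 to 4.86). In cluster 5, Nr4a1 had 0.12 (-0.28 to 0.52) and Egr1 0.64 (-0.032 to 1.31), and in cluster 1 Nr4a1 had -0.21 (-0.87 to 0.50) and Egr1 -0.42 (-1.30 to 0.54). In cluster 7, led by interferon-stimulated genes such as Ifit3, Nr4a1 was lower in RARα-KO at -1.14 (-1.83 to -0.44), and in cluster 9, with 33 WT and 434 RARα-KO cells, it was higher at 1.10 (0.28 to 2.06). Cells without cluster 11, taken as an alternative, left 4 members above and 0 below WT in RARα-KO.

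**Figure D3:**
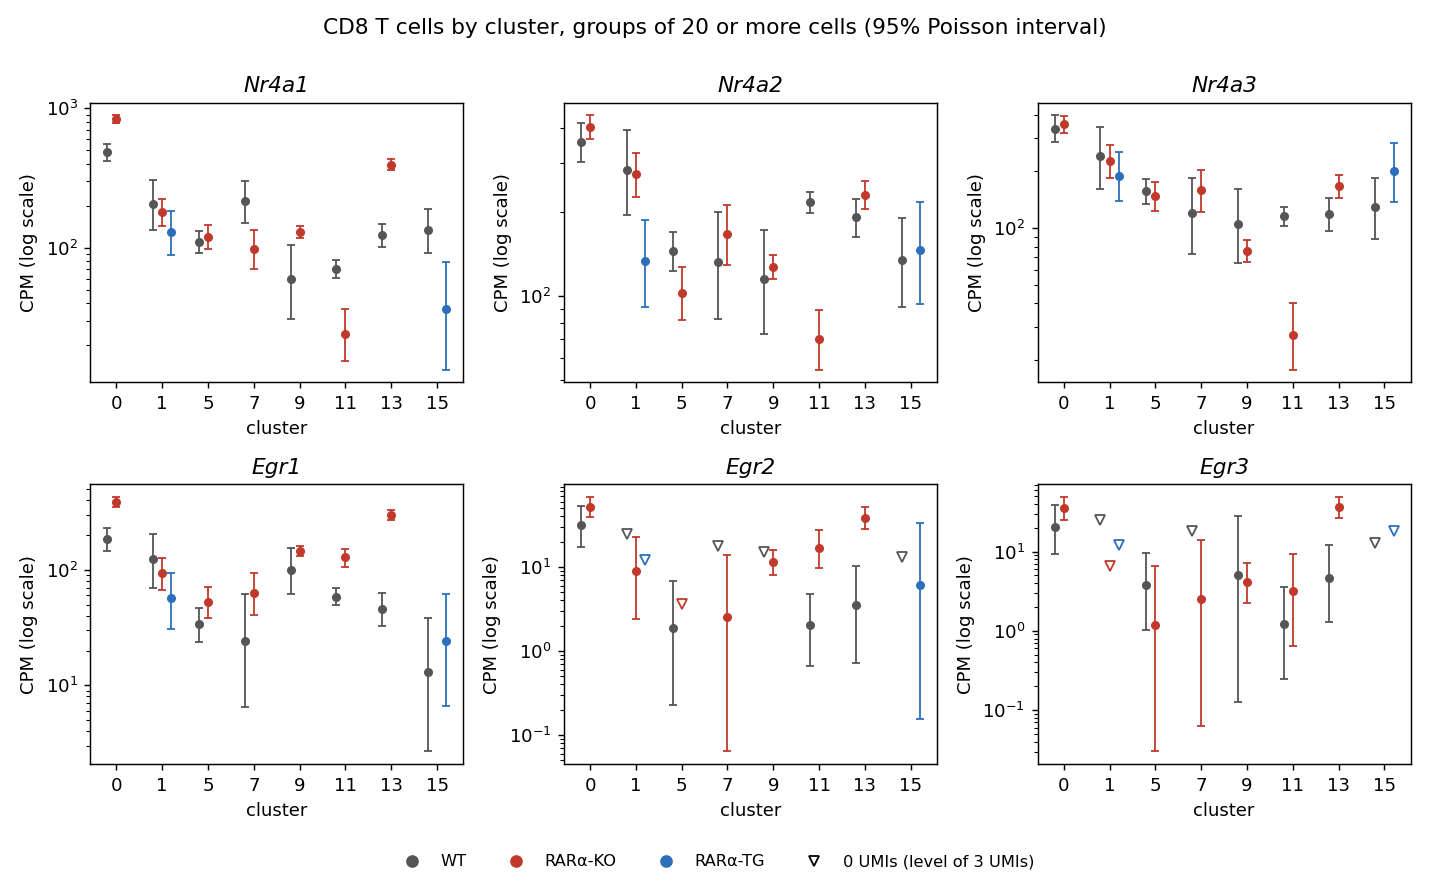
CPM on a log axis of the 6 genes in CD8 T cells by cluster for groups of 20 or more cells, with WT in gray, RARα-KO in red and RARα-TG in blue. Bars are Poisson 95% intervals, and open triangles mark 0 UMIs at the level of 3 UMIs. Nr4a1 peaks in cluster 0 at 484 CPM in WT and 834 CPM in RARα-KO, and is at 24.2 CPM in RARα-KO cells of cluster 11.

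CD8 T cells were next grouped by the size of their clonotype, the set of cells with the same receptor. Among WT cells, 123 were the only cell of their clonotype, 201 were in clonotypes of 2 to 9 cells and 467 were in 19 clonotypes of 10 or more cells, against 94, 198 and 683 cells in RARα-KO, the last in 24 clonotypes. In WT, the intervals of Nr4a1 and Egr1 overlapped over all sizes. Nr4a1 was 141 CPM (114 to 173) in single cells, 121 CPM (104 to 141) in 2 to 9 and 127 CPM (115 to 140.2) in 10 or more, and Egr1 was 66.2 CPM (48.1 to 88.9), 48.4 CPM (37.8 to 61.1) and 68.2 CPM (59.4 to 77.8). Nr4a2 was 226 CPM (191 to 265) in single cells and 181 CPM (167 to 196) in 10 or more, a log2 ratio of -0.32 (-0.58 to -0.048). Nr4a3 had -0.087 (-0.41 to 0.24), and Egr2 had 19 UMIs in large clonotypes and 0 in single cells. With a floor of 3 UMIs put in for the 0, the Egr2 ratio was 1.31-fold, without an interval, and it was not called. Thus 0 of 6 members were above and 1 was below, beside 11.9% and 11% of 6597 genes. Of the 6 members, 4 passed the minimum of 0.1 UMIs per cell that these genes passed. The call of Nr4a2 was lost without the largest clonotype (log2 ratio -0.21).

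In RARα-KO, the largest clonotypes and single cells had log2 ratios near 0 for Nr4a1 and Nr4a2, at -0.0091 (-0.25 to 0.24) and -0.074 (-0.35 to 0.22), and Egr1 and Egr2 were lower in the large ones. Nr4a1 was 292 CPM (248 to 342) in single cells, 182 CPM (159.6 to 207) in 2 to 9 and 290.1 CPM (275 to 306) in 10 or more. Egr1 was 377 CPM (327 to 433), 161 CPM (140.0 to 185) and 197 CPM (184 to 210.3), which gave a log2 ratio of -0.94 (-1.16 to -0.71) for 10 or more against single cells. The share of cells with Egr1 was not lower in large clonotypes, at 34.1% (30.6% to 37.8%) against 29.8% (20.8% to 40.1%) of single cells. Positive cells held 3.82 and 7.11 Egr1 UMIs on average in that order. Egr2 was 47.4 CPM (30.7 to 70.0) in single cells and 23.0 CPM (18.8 to 27.9) in large clonotypes, a log2 ratio of -1.04 (-1.68 to -0.35). Single cells were the shallower group, with a median of 3936 against 5501 UMIs. Here 0 of 6 members were above and 2 below, against 5.46% and 10.6% of 6555 genes. Without the largest clonotype 4 members were below, among them Nr4a1 at -0.31, and with cells thinned to 1000 UMIs none was.

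Compared at equal clonotype size, RARα-KO CD8 T cells kept higher levels of Nr4a1 and Egr1 than WT cells in all 3 size groups. For Nr4a1 the shares of positive cells in RARα-KO and WT had overlapping intervals. They were 28.7% and 37.4% among single cells, 33.8% and 36.8% in 2 to 9 and 38.4% and 34.5% in 10 or more. Positive single cells held 5.70 Nr4a1 UMIs on average in RARα-KO and 2.04 in WT. For Egr1 the shares were 29.8% (20.8% to 40.1%) and 15.4% (9.56% to 23.1%) among single cells, where the intervals overlapped. In larger clonotypes they did not overlap, at 34.3% and 19.9% in 2 to 9 and 34.1% and 21.6% in 10 or more. Positive single cells held 7.11 Egr1 UMIs on average in RARα-KO and 2.32 in WT. Among single cells the log2 ratio was 1.05 (0.67 to 1.43) for Nr4a1 and 2.51 (2.03 to 3.02) for Egr1, among clonotypes of 2 to 9 cells 0.59 (0.30 to 0.88) and 1.74 (1.34 to 2.15), and among those of 10 or more 1.19 (1.03 to 1.35) and 1.53 (1.32 to 1.75). Nr4a2 and Nr4a3 lay on different sides of WT by size. In clonotypes of 2 to 9 cells RARα-KO was lower, with -0.95 (-1.23 to -0.68) for Nr4a2 and -0.57 (-0.89 to -0.25) for Nr4a3, and in those of 10 or more it was higher, with 0.22 (0.068 to 0.37) and 0.25 (0.083 to 0.43). RARα-TG held no CD8 clonotype of 10 or more cells, and its 81 single cells had 85.8 CPM (60.7 to 118) of Nr4a1 and 126 CPM (95.5 to 164) of Nr4a2, log2 ratios of -0.72 (-1.30 to -0.16) and -0.84 (-1.31 to -0.38) to WT single cells.

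**Figure D4:**
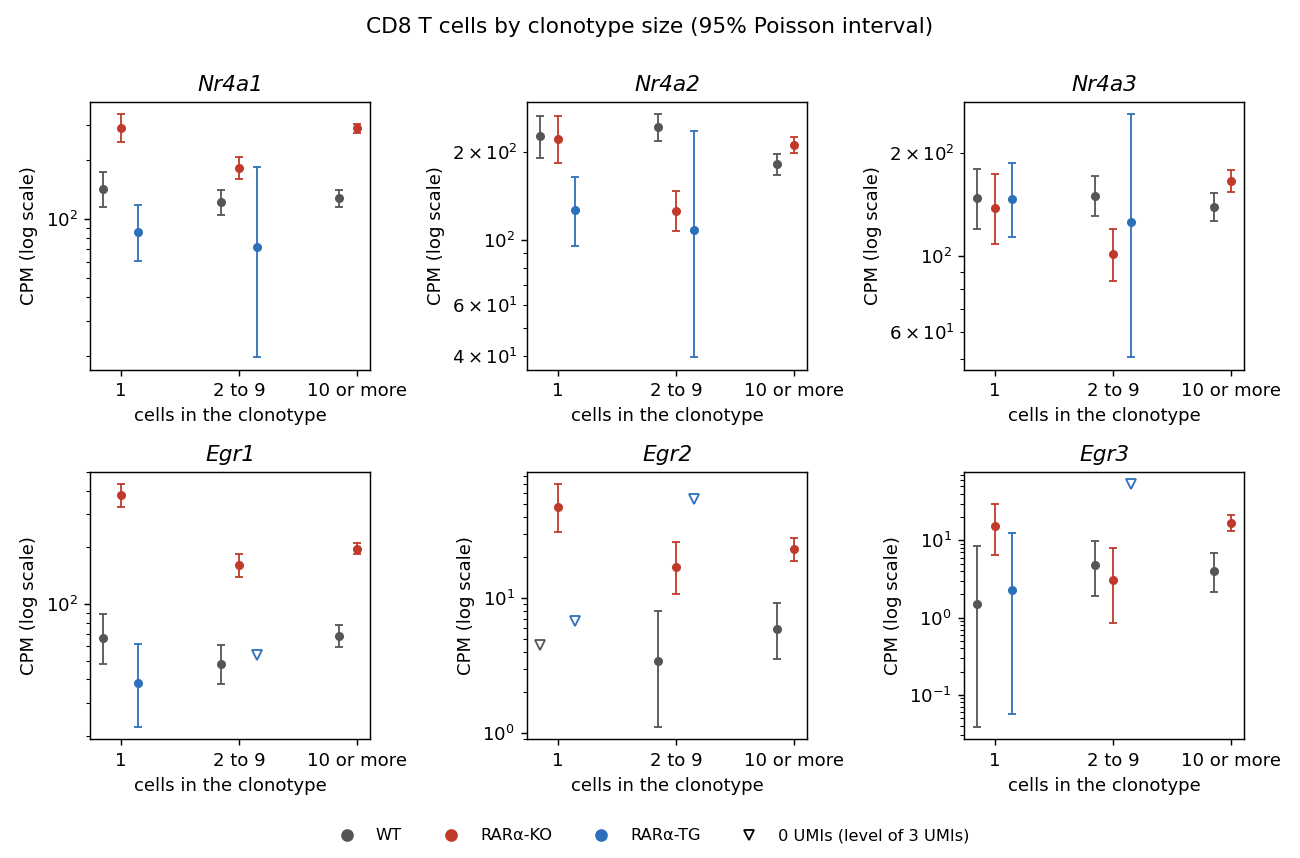
CPM on a log axis of the 6 genes in CD8 T cells by the number of cells in their clonotype, with WT in gray, RARα-KO in red and RARα-TG in blue, Poisson 95% intervals as bars and open triangles for 0 UMIs at the level of 3 UMIs. RARα-KO Egr1 is 377 CPM in single cells and 197 CPM in clonotypes of 10 or more cells, and WT Egr1 is 66.2 and 68.2 CPM.

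Single clonotypes varied widely. Over the 19 WT clonotypes with 10 or more CD8 T cells, Nr4a1 ran from 25.3 to 435 CPM with a median of 132, and over the 21 RARα-KO clonotypes it ran from 28.4 to 1272 CPM with a median of 207. Egr1 ran from 0 to 417 CPM with a median of 52.7 in WT and from 11.7 to 1170.0 CPM with a median of 133 in RARα-KO. The ranges of both genotypes overlapped for each of these genes. Nr4a2 ran from 48.8 to 408 CPM with a median of 149 in WT and from 54.2 to 323 CPM with a median of 170.2 in RARα-KO, and Nr4a3 from 63.2 to 280.2 CPM with a median of 131 and from 18.1 to 384 CPM with a median of 149. Egr2 was at 0 in 9 WT and 4 RARα-KO clonotypes, and Egr3 in 15 and 14. The cells of a clonotype share their receptor and their tumor, so they are not replicates of a genotype.

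The TCR beta CDR3 sequences of 4 of these clonotypes are shown to mark the receptors at the top of the Nr4a1 range and the largest clonotype of each genotype, 5′ to 3′ as in the deposited contigs, with the first and last codon in capitals.
RARα-KO, highest Nr4a1 (TRBV5): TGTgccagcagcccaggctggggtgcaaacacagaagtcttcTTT
RARα-KO, largest (TRBV16): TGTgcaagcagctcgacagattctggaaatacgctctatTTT
WT, highest Nr4a1 (TRBV29): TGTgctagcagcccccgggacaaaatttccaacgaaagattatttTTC
WT, largest (TRBV31): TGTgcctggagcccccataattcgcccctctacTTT
The RARα-KO TRBV5 clonotype, with 15 CD8 T cells, had 1272 CPM of Nr4a1 and 1170.0 CPM of Egr1, and 1 cell of 21841 UMIs held 99 of its 149 Nr4a1 and 118 of its 137 Egr1 UMIs. Without that cell the clonotype had 525 CPM of Nr4a1 and 199 CPM of Egr1. The WT TRBV29 clonotype, with 16 cells, had 435 CPM of Nr4a1, of which 1 cell held 39 of 46 UMIs, and 70.4 CPM without it. The largest RARα-KO clonotype, with 114 CD8 T cells, had 474 CPM of Nr4a1 and 279 CPM of Egr1, and 19.3% of its cells were in cluster 0. The largest WT clonotype, with 64 cells, had 51.9 and 33.6 CPM, and 1.56% of its cells were in cluster 0. TRBV16 was the beta segment of 13 of the 21 RARα-KO and 2 of the 19 WT clonotypes, with 12 and 1 distinct CDR3 sequences, since some clonotypes share their beta chain.

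**Figure D5:**
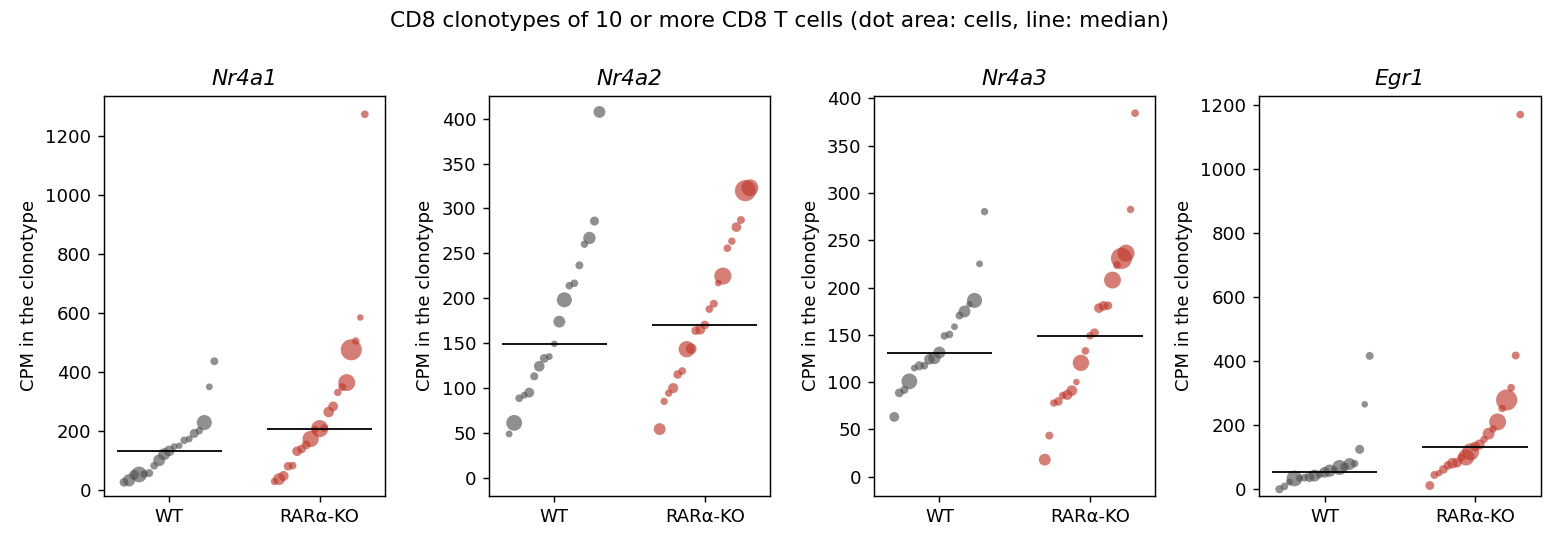
CPM of Nr4a1, Nr4a2, Nr4a3 and Egr1 in each clonotype with 10 or more CD8 T cells, WT in gray and RARα-KO in red, where dot area follows the number of cells, dots are ordered by level and lines are medians. The medians of Nr4a1 are 132 and 207 CPM and those of Egr1 52.7 and 133 CPM, with 1 RARα-KO clonotype far above the rest in both.

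Detection of several members in 1 cell was counted next. With each cell thinned to 1000 UMIs, 35.8% of WT CD8 T cells, 36.8% of those of RARα-KO and 35.1% of those of RARα-TG had 1 or more of the 6 genes, and 2.01% (1.18% to 3.21%), 4.82% (3.67% to 6.20%) and 0.901% (0.0228% to 4.92%) had 3 or more. Most positive cells had exactly 1 member, which was the case for 27.1% of all WT CD8 T cells, 23.9% of RARα-KO and 29.7% of RARα-TG ones. Before thinning, the shares with 3 or more were 23.9%, 25.02% and 18.9%. The RARα-KO and WT shares of cells with any member were thus close, and the share with 3 or more was higher in RARα-KO. In thinned RARα-KO cells, Nr4a2 was found in 36.6% of the 164 cells with Nr4a1 (29.2% to 44.5%) and in 10.4% of the 1019 cells without it (8.60% to 12.4%). Egr1 was found in 25% of the 164 cells with Nr4a1 (18.6% to 32.3%) and in 9.32% of the 1019 cells without it (7.61% to 11.3%). Egr1 was also found in 69.6% of the 23 cells with Egr2 (47.1% to 86.8%) and in 10.3% of the 1160 cells without it (8.65% to 12.2%). In thinned WT cells, Nr4a2 was found in 34.4% of the 96 cells with Nr4a1 (24.98% to 44.8%) and in 13.9% of the 748 cells without it (11.5% to 16.6%), and Egr1 in 7.29% of the 96 cells with Nr4a1 (2.98% to 14.4%) and in 4.01% of the 748 cells without it (2.72% to 5.68%), where the intervals overlapped.

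Other genes of the same pathways were taken from lists chosen with earlier results of these data known. Their counts stand beside the 1.29% and 1.35% of all genes that were 2-fold higher or lower in RARα-KO CD8 T cells. Given that choice, counts and medians of the lists, here and below, are a description. They do not support a difference of the lists from all genes. In a list of antigen response genes such as cytokines and feedback regulators, 8 of 31 tested genes were 2-fold or more higher and 2 lower, with a median log2 ratio of 0.39, against 0.016 for all genes. The highest were the chemokine genes Ccl3 at 3.26 (3.10 to 3.43) and Ccl4 at 3.25 (3.17 to 3.33), and the lowest were Ccl1 at -1.61 (-1.80 to -1.43) and Tnfrsf4, which encodes OX40, at -1.19 (-1.31 to -1.07). In a list of immediate early and stress genes that dissociation also induces in many cells, 5 of 23 tested genes were 2-fold or more higher and 0 lower, with a median log2 ratio of 0.31. The heat shock genes Hspa1b and Hspa1a were highest at 2.23 (2.06 to 2.40) and 2.15 (1.94 to 2.36), and Fosl2 and Dusp1 lowest at -0.42 (-0.53 to -0.31) and -0.17 (-0.35 to 0.012). Both heat shock genes were thus higher beside Egr1 and Nr4a1 in RARα-KO, and what part stress of the tissue had in those levels was not tested. Among genes of restraint, 1 of 16 tested genes were 2-fold or more higher and 1 lower, with a median log2 ratio of 0.25. Sema7a and Havcr2, which encodes TIM-3, were highest at 1.05 (0.73 to 1.38) and 0.91 (0.80 to 1.03), and Nrgn and Pdcd1, which encodes PD-1, lowest at -2.55 (-2.70 to -2.40) and -0.85 (-0.92 to -0.79).

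Partners and upstream factors of the members were counted in the same way. In RARα-KO, 0 of 10 tested genes were 2-fold or more higher and 0 lower. With 1.29% and 1.35% of all genes at 2-fold, such a count does not set these genes apart. Their median log2 ratio was 0.20, against 0.016 for all genes. Nab2, an Egr corepressor that Egr proteins induce, was highest at 0.36 (0.19 to 0.52), followed by Srf, the serum response factor, at 0.31 (-0.012 to 0.65), and Rxrb and Mef2d were lowest at -0.21 (-0.51 to 0.10) and -0.038 (-0.21 to 0.13). In RARα-TG, 0 of 10 tested genes were 2-fold or more higher and 1 lower, with a median log2 ratio of 0.28, and Nab2 was lowest at -1.05 (-1.71 to -0.46), next to Nfatc1 at -0.71 (-1.27 to -0.19), with Elk4 and Srf highest at 0.90 (0.34 to 1.42) and 0.62 (-0.14 to 1.31). In the antigen response list 2 of 30 tested genes were 2-fold or more higher and 16 lower, with a median log2 ratio of -1.09, beside 4.63% and 5.8% of all genes. Rgs16 and Ccl3 were lowest at -4.51 (-5.52 to -3.67) and -4.15 (-7.20 to -2.28), and Rgs1 and Hilpda highest at 1.40 (1.22 to 1.58) and 1.21 (0.95 to 1.47). In the restraint list 1 of 17 tested genes were 2-fold or more higher and 6 lower, with a median log2 ratio of -0.62, with Lag3 and Havcr2 lowest at -4.09 (-4.87 to -3.41) and -2.89 (-3.80 to -2.11) and Socs3 and Tox highest at 1.81 (1.31 to 2.30) and 0.43 (-0.58 to 1.31). In the immediate early and stress list 5 of 23 tested genes were 2-fold or more higher and 2 lower, with a median log2 ratio of 0.21. Hspa1b and Hspa1a were again highest at 2.29 (2.01 to 2.56) and 2.19 (1.84 to 2.54), while Egr1 was lower in RARα-TG, and Atf3 and Ier3 were lowest at -3.92 (-9.23 to -1.42) and -2.49 (-4.13 to -1.25).

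The lists were also counted by clonotype size. In WT, 5 of 30 tested genes were 2-fold or more higher and 0 lower, with a median log2 ratio of 0.33 in clonotypes of 10 or more cells against single cells, beside 4.29% and 3.29% of all genes, and in RARα-KO, 2 of 32 tested genes were 2-fold or more higher and 1 lower, with a median log2 ratio of 0.33, beside 2.5% and 3.13%. The medians over all 6 members were -0.022 in WT, where Egr2 and Egr3 did not pass the minimum, and -0.042 in RARα-KO. The list medians hold only genes that passed it, so they are not compared with those of the members. Over all tested genes the median was 0.039 in WT and -0.063 in RARα-KO. In the restraint list 4 of 17 tested genes were 2-fold or more higher and 2 lower, with a median log2 ratio of 0.20 in WT, and 3 of 16 tested genes were 2-fold or more higher and 1 lower, with a median log2 ratio of 0.091 in RARα-KO. In the immediate early and stress list 4 of 23 tested genes were 2-fold or more higher and 3 lower, with a median log2 ratio of -0.20 in WT, and 0 of 23 tested genes were 2-fold or more higher and 1 lower, with a median log2 ratio of -0.29 in RARα-KO. Of partners and relatives, 1 of 10 tested genes were 2-fold or more higher and 0 lower, with a median log2 ratio of -0.055 in WT, and 0 of 10 tested genes were 2-fold or more higher and 0 lower, with a median log2 ratio of -0.092 in RARα-KO.

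Over 33 groups of 20 or more cells, made from cell class, genotype and clonotype size and all from the same library, the pattern of each member was compared with 7931 genes by Pearson r of log2(CPM + 10), as a description. Egr1 and Egr2 were most like each other at r = 0.837, followed for Egr1 by Srsf2 at 0.831 and Gadd45g at 0.823 and for Egr2 by Ier3 at 0.830 and Rhob at 0.799. Nr4a3 was most like Pik3r1 at 0.865, Gramd1b at 0.862 and Runx3 at 0.848, and Nr4a2 like Paf1 at 0.809 and Gpd2 at 0.804. No gene was so near to Nr4a1 or Egr3. For Nr4a1 the first were Mfhas1 at 0.645, Cd81 at 0.639 and Ptov1 at 0.634, and for Egr3 Jmjd6 at 0.651, Mfhas1 at 0.648 and Csnk1e at 0.647. Among members, Nr4a1 had r = 0.241 with Nr4a2 and -0.120 with Nr4a3, and Nr4a3 had -0.662 with Egr1.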

How the data were processed

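Cells of all 3 genotypes were read as 1 pooled library with 5′ gene expression, TCR and hashtag reads. The deposited matrix holds UMI counts per gene and barcode that the authors made with Cell Ranger on mm10. The study states version 6.1.0 and the matrix header 4, so it is unsettled which one counted the reads. The matrix is unfiltered, with 32285 genes, 730308 barcodes and 46394322 gene UMIs. Cells were called in the manner of EmptyDrops: 2417 barcodes in a first step for 3000 expected cells, and 3168 of 3183 further barcodes with 500 or more UMIs at a false discovery rate of 0.01 over 1000 simulations. The 5585 cells held 96.4% of gene UMIs. HTODemux (Seurat 5.3.0, R 4.3.3, quantile 0.99) left 4925 cells with 1 hashtag. It removed 426 doublets between genotypes and 234 cells without a hashtag, and doublets within a genotype remain. Cells were clustered with scanpy 1.11.5 on 1908 variable genes, without receptor segments and without the 3 members among them, into 19 clusters (30 principal components, resolution 1). A T cell cluster had a TCR clonotype in over 50% of its barcodes. Of 3959 cells in T cell classes, 1 had over 10% mitochondrial UMIs. Intervals were computed with scipy 1.17.1 at 95% and checked on simulated data.

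A gene was tested where 1 of both groups had 0.1 or more UMIs per cell, called where the interval of its log2 ratio left out 0, and the lists were counted at 2-fold or more, whatever the interval, with a floor of 3 UMIs for a group at 0. All 6 members are named. From each list the 2 highest and 2 lowest genes are named, and for likeness the 3 nearest genes per member. 1 gene of the latter is not reported here. The members and lists were chosen with earlier results of these data known. Alternatives changed the T cell and CD8 gates, clusters, the CPM total, depth, clonotype weights, hashtag calls and clonotype size. Cell means and the removal of cells with other cells' markers were added after seeing the data. A second file of the same TCR contigs was not used.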

Additional observations from a re-analysis of the deposited data

Results flagged for a closer look

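The RARα-KO difference of Nr4a1 had opposite signs in CD8 and in Foxp3-negative CD4 T cells. It was 0.96 on the log2 scale in CD8 T cells and -0.46 in Foxp3-negative CD4 T cells, with counting intervals on opposite sides of 0. The RARα-TG difference of Nr4a1 had opposite signs in CD8 T cells, at -0.50, and in Foxp3-positive CD4 T cells, at 0.37. Each genotype is 1 sample, so neither difference between cell classes was tested. Outside cluster 0 the RARα-TG value of CD8 T cells was -0.12 (-0.55 to 0.28), with an interval that held 0. In Foxp3-positive CD4 T cells it was 0.82 (0.33 to 1.31) within cluster 3, while most RARα-TG cells of this class were in cluster 16, at 218 CPM (178 to 263).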

How the results depend on the processing

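Of the alternative values, 143 of 164 counts of members and 481 of the single ratios kept their place, 44 ratios moved beyond the counting interval and 3 had the opposite sign. For RARα-KO against WT CD8 T cells, the count of lower members was 0 with T cells taken by TCR contig alone, with a Cd8a or Cd8b1 gate, without the Gzmf cluster (Nr4a2 then 0.053) and after thinning to 1000 UMIs, and 2 without the largest clonotype. For RARα-TG CD8 T cells, thinning left 1 lower member and put Egr1 at 0.31. In Foxp3-negative CD4 T cells, RARα-KO had 0 higher members by TCR contig alone and after thinning, and RARα-TG had 1 lower by TCR contig alone. In Foxp3-positive CD4 T cells, RARα-KO had 0 higher members by TCR contig alone, 2 with a hashtag 5 times the next and 2 without cells that hold other cells' markers, and thinning put Egr1 at -0.73; RARα-TG had 0 higher in CPM without mitochondrial, ribosomal, receptor and granzyme genes and 2 without cells that hold other cells' markers. For WT clonotypes of 10 or more cells, 0 members were lower with a Cd8a or Cd8b1 gate, after thinning, without the largest clonotype, with a hashtag 5 times the next and with clonotypes of 5 or more cells, and for RARα-KO 0 were lower after thinning and 4 without the largest clonotype. The causes were not tested. Over all alternatives, RARα-KO against WT in CD8 T cells ranged from 0.61 to 0.996 for Nr4a1, 1.18 to 1.72 for Egr1, 1.72 to 3.80 for Egr2 and 1.19 to 1.82 for Egr3. With all genes that have a UMI in both groups as the base, 5.04% were 2-fold or more higher and 6.48% lower in RARα-KO CD8 T cells, in place of 1.29% and 1.35%. Equal weights for clonotypes or cells give no counting interval and so no count of members. No paired analysis was possible because each genotype is 1 sample. RARα-TG CD8 T cells and both sparse Egr genes are limited by depth.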
